A study of Homo sapiens with 6 samples.

Results

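The genes described here encode the machinery that copies DNA: the proteins that mark and license replication origins, the replicative helicase and its activators, the polymerases, the sliding clamp and its loader, and the factors that protect the fork and finish the new strand. They were taken by name from a list of 54 genes, and all 54 were found among the 50868 genes of the deposited count tables. The cells were DU145, an androgen-independent human prostate cancer line known to carry a defective RB1 gene. They had received either a control siRNA (siCtrl, 3 libraries, labelled RCC2 wild type) or an siRNA against RCC2 (siRCC2, 3 libraries, labelled RCC2 knockdown). RCC2 belongs to the RCC1 repeat family and acts at centromeres and on small GTPases. RNA was sequenced from bulk cultures, so fewer cells in S phase and less RNA per cell cannot be told apart. Neither the time after siRNA treatment nor the sequence of either siRNA was known here.

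Origins are licensed in G1, when the origin recognition complex (ORC), CDC6 and CDT1 load the MCM2-7 ring onto DNA, and geminin (GMNN) blocks CDT1 from loading it again once S phase has begun. CDC45 and the GINS complex, helped by MCM10 and by the CDC7-DBF4 kinase, turn the loaded ring into a moving helicase. Polymerase alpha with primase starts each strand, polymerase epsilon extends the leading strand and polymerase delta the lagging strand, and PCNA, replication factor C (RFC), replication protein A (RPA), FEN1 and DNA ligase I (LIG1) hold, cover and join the products. Many of these genes are known targets of E2F transcription factors.

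The replication genes that passed the test went in both directions. Within a complex this held for ORC and for RFC. The calls of ORC1, RFC2, GINS2, CCNE2, MCM5, POLD1 and CDT1 were lost in some alternative fits. The GINS subunit genes GINS1, GINS2 and GINS4, the cyclin E genes, the large RPA subunits, the polymerase epsilon genes POLE and POLE3, and FEN1 rose after RCC2 siRNA. MCM10, CDC45, geminin, ORC2, both primase genes, the polymerase delta genes POLD1 and POLD3, RFC4 and LIG1 fell. Of the 6 MCM2-7 genes, 5 did not pass the test. Of the 54 genes, 25 passed an adjusted p of 0.05 in edgeR's quasi-likelihood test with Benjamini-Hochberg adjustment over all genes, or 46.3%, beside 41.8% of the 16536 genes tested. The 13 that were higher in siRCC2 made up 24.1%, beside 20.7% of all tested genes, and the 12 that were lower made up 22.2%, beside 21.1%. These shares lie near the background.

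The 6 libraries held between 17377191 and 19895431 counts, and all 54 genes passed the filter on low counts, with 122 to 7163 counts per gene and library. RCC2 itself had 3998, 3598 and 3702 counts in the control libraries and 980, 1117 and 1045 after its siRNA. In counts per 1000000 library counts (CPM) its mean went from 194 ± 3.84 to 57.2 ± 2.25 (SD, n = 3), which is -1.76 ± 0.07 on the log2 scale (SE, adjusted p = 2e-05 by edgeR). Whether replicates were grown as separate cultures is not in the labels, so p-values measure only how these libraries vary, and that variation may be technical. The siRCC2 libraries differed more among themselves than the siCtrl libraries did, with a chi-square per degree of freedom of 13.1 to 31.9 against 9.56 to 9.9. On the second principal component, which held 16.4% of the variance, siRCC2 replicate 1 scored 41.5, replicate 2 -13.3 and replicate 3 -35.2. The epithelial keratins KRT8, KRT18 and KRT19 were abundant in every library, and KLK3, which encodes a prostate secretory protease, did not exceed 0.0515 CPM. CDH1 ran from 80 to 108 CPM and EPCAM from 9.79 to 16.5 CPM, so these epithelial markers were present. Summed levels of the other cell type markers were 13.2 to 15.5 CPM in siCtrl and 9.86 to 13 CPM in siRCC2 for 5 fibroblast genes (DCN at most 0.309 CPM, LUM at 0), of which COL1A1 held 7.8 to 13.2 CPM and COL1A2 1.08 to 2.01 CPM. The 5 leukocyte genes summed to 15.1 to 18.1 and 16 to 23.3 CPM, nearly all of it CD68, with CD3E at 0, PTPRC at most 0.0515 CPM and LYZ at most 0.0992 CPM. The 4 endothelial genes PECAM1, VWF, CDH5 and KDR summed to 0.943 to 1.46 and 0.315 to 0.824 CPM. 

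Many promoters of the replication genes held letters that match an E2F site. Of the 54 genes, 46 had a window in the RefSeq promoter table (GRCh38.p14, 250 bases before to 50 after an annotated start). An E2F-type 8-mer (TTTCCCGC, TTTCGCGC, TTTGCCGC or TTTGGCGC, on either strand) lay in the windows of 22 of them, or 47.8%, beside 6.55% of the 11180 tested genes with a window. By window, 23 of 61 (37.7%) held one, beside 3.31% of the 35116 windows in the table. The shorter motif CCAAT, searched on both strands, lay in 56.5% of the replication genes and 42.6% of tested genes. Within the replication genes, the 8-mer was found in 3 of 10 that rose, 3 of 10 that fell and 16 of 26 that did not pass the test. It is shown in capitals in 200 bases of 4 promoters, 5′ to 3′ on the gene's strand, chosen for 2 genes that fell (GMNN and LIG1), 1 that rose (POLE, where the motif reads on the opposite strand) and 1 that did not pass (MCM6). In MCM6 the letters occur 2 times as a longer run, in which a match on one strand overlaps a match on the other. A match is a run of letters and not a measured binding site.
GMNN, chr6:24775213-24775412, plus strand: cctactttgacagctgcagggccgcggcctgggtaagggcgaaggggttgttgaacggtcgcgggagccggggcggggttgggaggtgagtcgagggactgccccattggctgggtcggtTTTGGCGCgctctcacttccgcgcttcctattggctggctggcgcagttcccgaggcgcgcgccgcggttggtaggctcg
LIG1, chr19:48170345-48170544, minus strand: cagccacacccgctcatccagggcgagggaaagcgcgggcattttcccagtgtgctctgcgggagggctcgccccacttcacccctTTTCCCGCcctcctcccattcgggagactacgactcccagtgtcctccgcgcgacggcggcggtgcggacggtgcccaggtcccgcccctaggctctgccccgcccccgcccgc
POLE, chr12:132687343-132687542, minus strand: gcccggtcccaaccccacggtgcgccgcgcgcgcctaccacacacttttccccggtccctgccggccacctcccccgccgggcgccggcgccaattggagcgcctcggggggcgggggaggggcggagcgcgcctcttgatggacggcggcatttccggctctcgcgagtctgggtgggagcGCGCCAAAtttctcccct
MCM6, chr2:135876444-135876643, minus strand: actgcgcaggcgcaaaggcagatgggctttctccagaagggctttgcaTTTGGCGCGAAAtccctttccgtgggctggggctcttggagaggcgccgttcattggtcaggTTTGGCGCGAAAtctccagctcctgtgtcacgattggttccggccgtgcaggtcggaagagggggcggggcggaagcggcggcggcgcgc

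The 3′ UTRs were searched for the 6-mer TCTGGA, which an earlier look at these same data had linked to genes lower in siRCC2, so its share among them is a description and no independent evidence. It lay in the 3′ UTR of 24 of the 54 replication genes (44.4%), beside 45.2% of 13158 tested genes whose 3′ UTR had 100 bases or more. Among the replication genes that fell it lay in 9 of 12 (75%), beside 56.5% of all genes that fell. Of those that rose it lay in 5 of 13 (38.5%), beside 36.8%, and of those that did not pass in 10 of 29 (34.5%), beside 43.6%. The median 3′ UTR length of the replication genes was 903 bases for those that fell, 1746 for those that rose and 974 for the rest, and over all tested genes 1489, 1342 and 1427 bases. The part of UTR length in these shares was not tested. The first match in each of the 5 genes with the largest falls that hold one is shown on the transcript's strand (GENCODE 29, GRCh38), with the 6-mer in capitals and 8 bases on each side.
GMNN, chr6:24785884-24785905, plus strand: atgccaacTCTGGAatcaaatt
MCM10, chr10:13209349-13209370, plus strand: cctgtgacTCTGGAaagcaaag
ORC2, chr2:200911052-200911073, minus strand: attacctcTCTGGAgacttctt
POLD3, chr11:74640932-74640953, plus strand: ggaaatcaTCTGGAagcaggag
PRIM2, chr6:57646808-57646829, plus strand: aatcctttTCTGGAccattttt

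Changes among the replication genes were of moderate size. Their median log2 fold change was 0.00, beside -0.015 for all tested genes, and the median of its absolute value was 0.32, beside 0.40. A change of at least 1 on the log2 scale was reached by 4 of the 54 genes, GINS4 upwards and POLD3, GMNN and MCM10 downwards, beside 13.4% of all tested genes. In 36 genes (66.7%) the 3 libraries of one group lay wholly above those of the other, beside 55.4% of tested genes. All 25 genes that passed the test were among these 36. The summed level of the 54 genes was 4121, 4117 and 4014 CPM in siCtrl and 4476, 4221 and 4170 CPM in siRCC2.

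**Figure D1:**
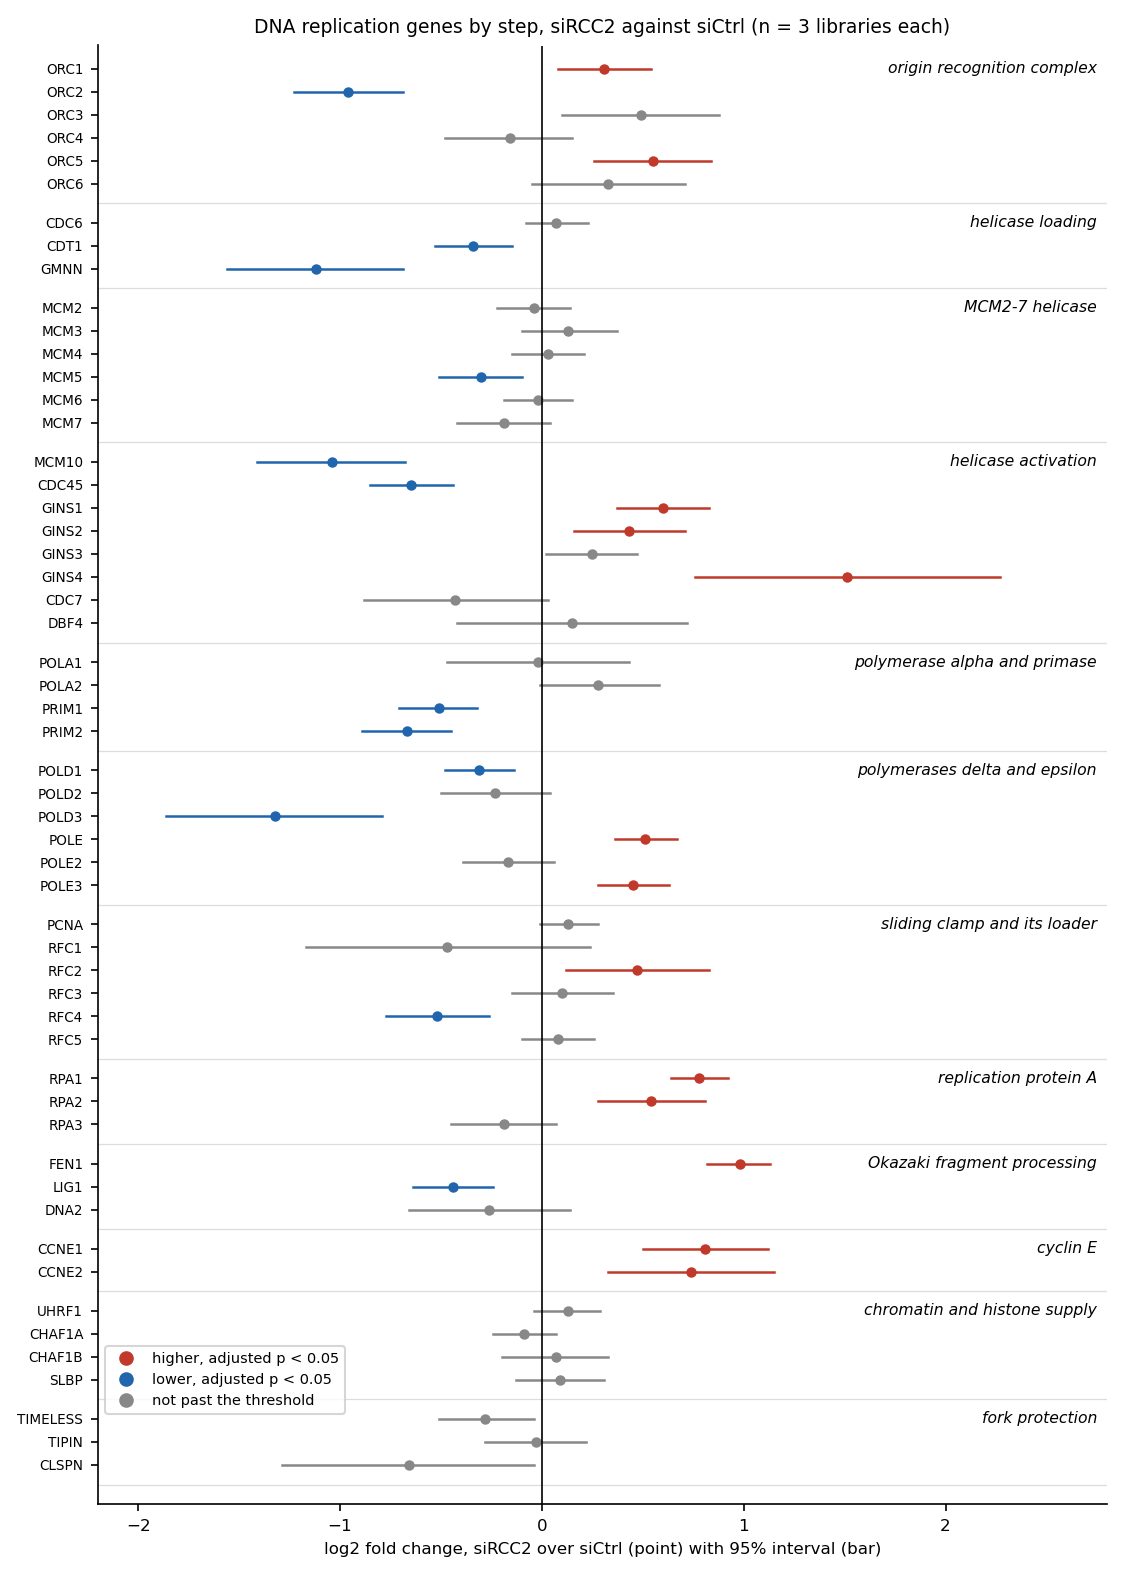
Log2 fold change, siRCC2 over siCtrl (points), with 95% intervals (bars) for the 54 replication genes, ordered by step; red and blue mark genes higher and lower past an adjusted p of 0.05, grey marks the others. Rises and falls lie side by side within ORC, the helicase activators, the polymerases and the Okazaki fragment genes, while 5 of 6 MCM2-7 genes are grey.

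The origin recognition complex lost transcripts of 1 subunit and gained those of others. ORC2, a core subunit of the ring, measured 43.9, 38.5 and 46.2 CPM in siCtrl and 19.8, 22.6 and 23.8 CPM in siRCC2, in replicate order here and below. Every siRCC2 library was thus far below every siCtrl library, with -0.96 ± 0.11 on the log2 scale (log2 fold change ± SE, as in later parentheses; adjusted p = 0.000781). ORC5, which binds ATP within the complex, went the other way, from 15.6, 18 and 17.7 CPM to 23, 23.7 and 28.4 CPM (0.55 ± 0.12, adjusted p = 0.0102). ORC1, the subunit that is degraded after G1 in human cells, rose less, from 23.2, 24.4 and 26.7 CPM to 30.8, 32 and 29.1 CPM (0.31 ± 0.10, adjusted p = 0.0399). With 1 library left out, the ORC1 call held only without siRCC2 replicate 3 (adjusted p = 0.0416) and was lost in the 5 other fits (up to 0.138). Among the subunits that did not pass, ORC3 measured 14.2, 14.1 and 14 CPM in siCtrl and 15.4, 19.9 and 24.1 CPM in siRCC2 (0.49 ± 0.17, adjusted p = 0.0508). Its siCtrl libraries were nearly equal and its siRCC2 libraries were spread, and without siRCC2 replicate 1 its adjusted p was 0.00453. The log2 fold change was 0.33 ± 0.16 for ORC6 (adjusted p = 0.147) and for ORC4 -0.16 ± 0.13 (adjusted p = 0.37); without siRCC2 replicate 3, the lowest siRCC2 library for ORC6 at 19.5 CPM, the adjusted p of ORC6 was 0.0121.

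Geminin fell most among the loading factors. GMNN measured 28.2, 25.8 and 21.3 CPM in siCtrl and 10.6, 9.58 and 14.4 CPM in siRCC2 (-1.12 ± 0.19, adjusted p = 0.00304). The groups did not overlap, and the siRCC2 mean was 2.18-fold lower. CDT1, the loader that geminin inhibits, fell by a smaller amount, from 75.1, 74.8 and 76.7 CPM to 64.5, 55.5 and 58.5 CPM (-0.34 ± 0.08, adjusted p = 0.013), a call that was lost without siCtrl replicate 3 (adjusted p = 0.0506) or siRCC2 replicate 2 (0.101). The unequal falls show in the ratio of CDT1 to GMNN within each library, both taken as counts per kilobase of transcript: 1.04, 1.13 and 1.4 in siCtrl and 2.37, 2.26 and 1.58 in siRCC2. The third siRCC2 library lay closest to the control libraries. CDC6, the ATPase that brings CDT1 and the MCM ring to ORC, measured 57.9, 59.7 and 60 CPM against 62.7, 62.8 and 61.6 CPM, and its small difference did not pass (0.07 ± 0.07, adjusted p = 0.412).

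The 6 genes of the MCM2-7 ring stayed within narrow limits. MCM5, which sits at the gate of the ring with MCM2, was the 1 subunit gene past the threshold, with 301, 303 and 292 CPM in siCtrl and 272, 236 and 219 CPM in siRCC2 (-0.30 ± 0.09, adjusted p = 0.029). With 1 library left out, that call held only without siRCC2 replicate 1 (adjusted p = 0.00267; up to 0.17 in the 5 other fits) and was lost with an offset for gene length (-0.21, adjusted p = 0.201). For the other 5 subunit genes the 95% intervals of the log2 fold change ran from -0.22 to 0.14 for MCM2, -0.10 to 0.37 for MCM3, -0.15 to 0.21 for MCM4, -0.19 to 0.15 for MCM6 and -0.42 to 0.04 for MCM7. A change of 1 log2 unit lies outside each of these intervals. MCM7 passed without siRCC2 replicate 1 (-0.28, adjusted p = 0.0393). Summed over the ring, the level was 1526, 1511 and 1449 CPM in siCtrl and 1581, 1356 and 1349 CPM in siRCC2, with siRCC2 replicate 1 the highest of all 6 libraries. Levels of different genes were compared as counts per kilobase of the longest annotated transcript, scaled to the same total in every library. On this per-length scale MCM3 was the most abundant of the 54 genes in both groups (230 ± 4.83 and 233 ± 21.3, SD, n = 3), and MCM6 was the least abundant of the ring (78.7 ± 1.58 and 71.8 ± 3). The ratio between those extremes was 2.92 in siCtrl and 3.24 in siRCC2. The per-length scale in siRCC2 was 92.8% of its siCtrl value relative to CPM, so it serves to compare genes within a group and not groups.

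Of the 8 helicase activator genes, 3 rose, 2 fell and 3 did not pass. GINS4 (also called SLD5), a subunit of the GINS tetramer, had the largest rise of the 54 genes. It measured 14.9, 13.4 and 10.8 CPM in siCtrl and 19.9, 47.5 and 44.1 CPM in siRCC2 (1.51 ± 0.32, adjusted p = 0.00875). Replicates 2 and 3 of siRCC2 carried most of that rise, and replicate 1 lay just above the control libraries; without it the log2 fold change was 1.80. GINS1 (PSF1) rose from 18.3, 18.4 and 20 CPM to 27.7, 30.8 and 27.4 CPM (0.60 ± 0.10, adjusted p = 0.003). GINS2 (PSF2) rose from 18.1, 21.3 and 20.6 CPM to 29.9, 24.8 and 26.4 CPM (0.43 ± 0.12, adjusted p = 0.0218), a call lost without siCtrl replicate 1 (adjusted p = 0.0815) or siCtrl replicate 3 (0.0592). The fourth subunit gene, GINS3 (PSF3), was also higher in every siRCC2 library but did not pass (0.25 ± 0.10, adjusted p = 0.0795).

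MCM10 and CDC45, which act with GINS at the helicase, had fewer transcripts. MCM10, which is needed for the assembled helicase to open the DNA, fell from 24.8, 31.6 and 24.9 CPM to 10.9, 14.1 and 14.3 CPM (-1.04 ± 0.15, adjusted p = 0.00192). CDC45, which joins MCM2-7 and GINS in the active helicase, fell from 51.9, 56.4 and 53.3 CPM to 37.1, 33.1 and 33 CPM (-0.65 ± 0.09, adjusted p = 0.00128). Neither gene's groups overlapped. The kinase CDC7 that fires origins measured 29.6, 30 and 36.6 CPM against 17.7, 24.2 and 29.5 CPM (-0.43 ± 0.19, adjusted p = 0.115), and its regulatory subunit DBF4 stood at 0.15 ± 0.24 (adjusted p = 0.651). The siRCC2 libraries of CDC7 were widely spread, and without the highest, replicate 3, its adjusted p was 0.0349.

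**Figure D2:**
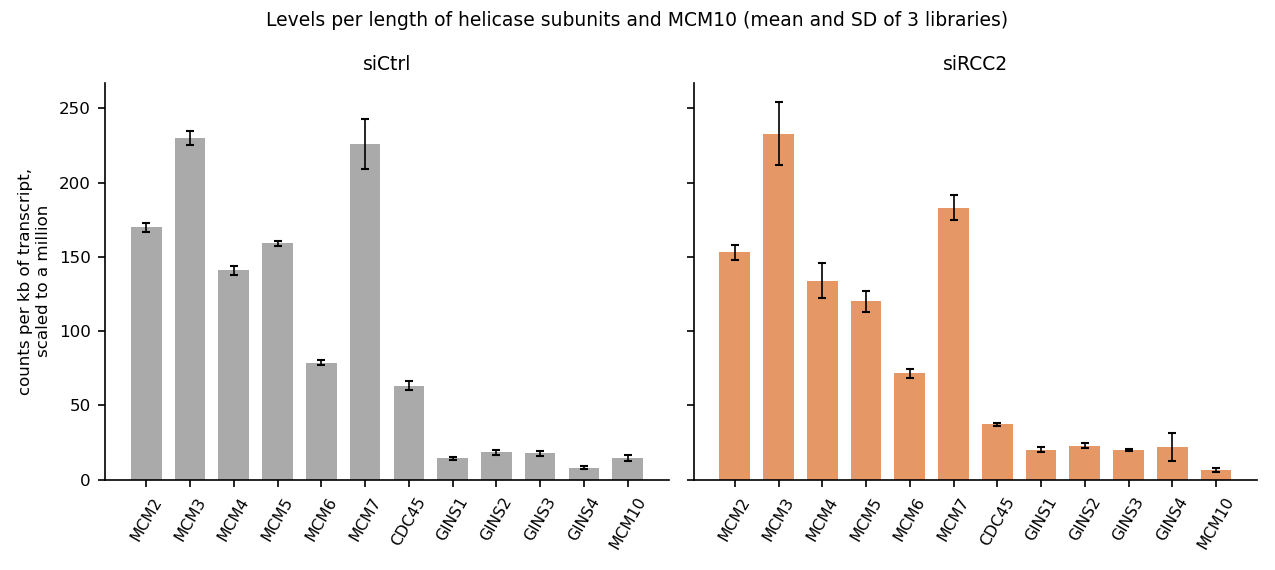
Mean level per length (counts per kilobase of transcript, scaled to a fixed total; bars) with SD of 3 libraries (error bars) for the MCM2-7, CDC45, GINS and MCM10 genes, siCtrl at left and siRCC2 at right. In both panels the MCM genes stand above CDC45, and CDC45 above GINS, whose siCtrl levels run from 8.23 (GINS4) to 18.4 (GINS2).

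Within the siCtrl libraries CDC45 stood at 63.2 ± 2.94 on the per-length scale, the 4 GINS genes at 8.23 ± 1.17 (GINS4) to 18.4 ± 1.75 (GINS2), and MCM10 inside that range at 14.5 ± 2.02. Within the siRCC2 libraries CDC45 was at 37.4 ± 1.03, GINS3, GINS1 and GINS2 at 19.7 ± 0.658, 20.1 ± 1.66 and 23 ± 1.55, and GINS4 at 22.1 ± 9.57, spread widely between libraries. MCM10 had the lowest mean of these genes in siRCC2, at 6.54 ± 1.23.

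Both primase genes fell while the polymerase alpha genes did not pass. PRIM1, the catalytic primase subunit that lays down the RNA primer, measured 41.6, 39.7 and 41.1 CPM in siCtrl and 27.1, 29.6 and 29 CPM in siRCC2 (-0.51 ± 0.08, adjusted p = 0.00272). PRIM2, its large regulatory subunit, measured 24.3, 24.3 and 26.7 CPM against 15.9, 15.6 and 15.9 CPM (-0.67 ± 0.09, adjusted p = 0.00156). The siRCC2 libraries of PRIM2 were nearly equal. The share of 50-base stretches found in other genes' transcripts was 22.2% for PRIM1 and 31.3% for PRIM2, so their values depend on how the counting shared reads. POLA1, the catalytic polymerase subunit, had a log2 fold change of -0.02 with a 95% interval of -0.47 to 0.43. POLA2, its accessory subunit, had 0.28 with an interval of -0.01 to 0.58, and 54.1% of its stretches were shared.

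Of the 3 polymerase delta genes 2 fell, and of the 3 polymerase epsilon genes 2 rose. POLD3, an accessory subunit of polymerase delta that is also known for its part in break-induced replication, had the largest fall of the 54 genes. It measured 41.3, 42.1 and 26.6 CPM in siCtrl and 16.4, 11.2 and 16.4 CPM in siRCC2 (-1.32 ± 0.23, adjusted p = 0.00351). Replicate 3 was the lowest siCtrl library and still above all of siRCC2. POLD1, the catalytic subunit, fell from 149, 139 and 137 CPM to 122, 111 and 111 CPM (-0.31 ± 0.07, adjusted p = 0.0137), and lost its call without siCtrl replicate 1 (adjusted p = 0.0587) or siRCC2 replicate 2 (0.109). Of its 50-base stretches, 10.9% were shared with other genes. POLD2, the subunit that links the others, did not pass (-0.23 ± 0.11, adjusted p = 0.149). POLE, the catalytic subunit of polymerase epsilon, rose from 156, 169 and 158 CPM to 242, 225 and 223 CPM (0.51 ± 0.07, adjusted p = 0.00112). POLE3, a histone-fold subunit of the same polymerase, rose from 148, 143 and 147 CPM to 215, 198 and 186 CPM (0.45 ± 0.07, adjusted p = 0.00277). For both genes every siRCC2 library lay above every siCtrl library. POLE2, the second subunit of the enzyme, did not pass (-0.17 ± 0.09, adjusted p = 0.2). The genes of the fourth subunits, which belong to a further list and were named after their values were seen, did not pass either (POLD4 0.01 ± 0.15, adjusted p = 0.956, and POLE4 0.20 ± 0.13, adjusted p = 0.28).

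Transcripts of the clamp PCNA differed little between the groups, at 114, 118 and 115 CPM in siCtrl and 129, 123 and 128 CPM in siRCC2. The groups did not overlap, yet the log2 fold change of 0.13 ± 0.06 did not pass (adjusted p = 0.119). The loader that opens the clamp, RFC, had 1 subunit gene on each side. RFC4 fell from 38.4, 44.9 and 39.6 CPM to 26.4, 28.3 and 31.2 CPM (-0.52 ± 0.11, adjusted p = 0.00791). RFC2 rose from 48.8, 42.9 and 47.9 CPM to 64, 78 and 51.7 CPM (0.47 ± 0.15, adjusted p = 0.0416). The siRCC2 libraries of RFC2 were widely spread, and with 1 library left out the call held only without siRCC2 replicate 3, the lowest of them (adjusted p = 0.00849; up to 0.133 in the 5 other fits). RFC1, the large subunit, measured 55.7, 59.4 and 62 CPM against 22.6, 47.8 and 57.5 CPM (-0.47 ± 0.30, adjusted p = 0.251). Its low value came from siRCC2 replicate 1, without which the log2 fold change was -0.18. RFC3 (0.10 ± 0.10, adjusted p = 0.477) and RFC5 (0.08 ± 0.08, adjusted p = 0.448) did not pass.

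Replication protein A, which coats single-stranded DNA, rose in its 2 larger subunits. RPA1, the main DNA-binding subunit, measured 225, 215 and 211 CPM in siCtrl and 383, 369 and 362 CPM in siRCC2 (0.78 ± 0.06, adjusted p = 0.000147). The spread within each group was small beside the 1.71-fold difference. RPA2, the subunit phosphorylated upon replication stress, rose from 53.5, 56.6 and 59.1 CPM to 88.9, 88.4 and 69.8 CPM (0.54 ± 0.11, adjusted p = 0.00748). RPA3, the smallest subunit, measured 26.7, 22.9 and 21.6 CPM against 21.5, 20.3 and 20.7 CPM and did not pass (-0.19 ± 0.11, adjusted p = 0.208). The ratio of RPA1 to RPA3 per length was 4.25 in siCtrl and 8.3 in siRCC2.

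The enzymes that finish Okazaki fragments moved apart. FEN1, the flap endonuclease that removes the displaced primer end, measured 97, 100 and 95.7 CPM in siCtrl and 203, 189 and 184 CPM in siRCC2 (0.98 ± 0.07, adjusted p = 9.75e-05), the smallest adjusted p of the 54 genes. LIG1, the ligase that seals the nick FEN1 leaves, fell from 47.8, 50.9 and 49.9 CPM to 39.2, 35.2 and 35.1 CPM (-0.44 ± 0.08, adjusted p = 0.00573). As counts per kilobase, FEN1 exceeded LIG1 by 3.63, 3.51 and 3.43 times in the siCtrl libraries and by 9.24, 9.62 and 9.37 times in the siRCC2 libraries. That ratio varied little within a group. In the order of the 54 genes per length, FEN1 moved from place 11 to place 4 and RPA1 from place 9 to place 3. DNA2, the nuclease for long flaps, did not pass (-0.26 ± 0.17, adjusted p = 0.256).

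**Figure D3:**
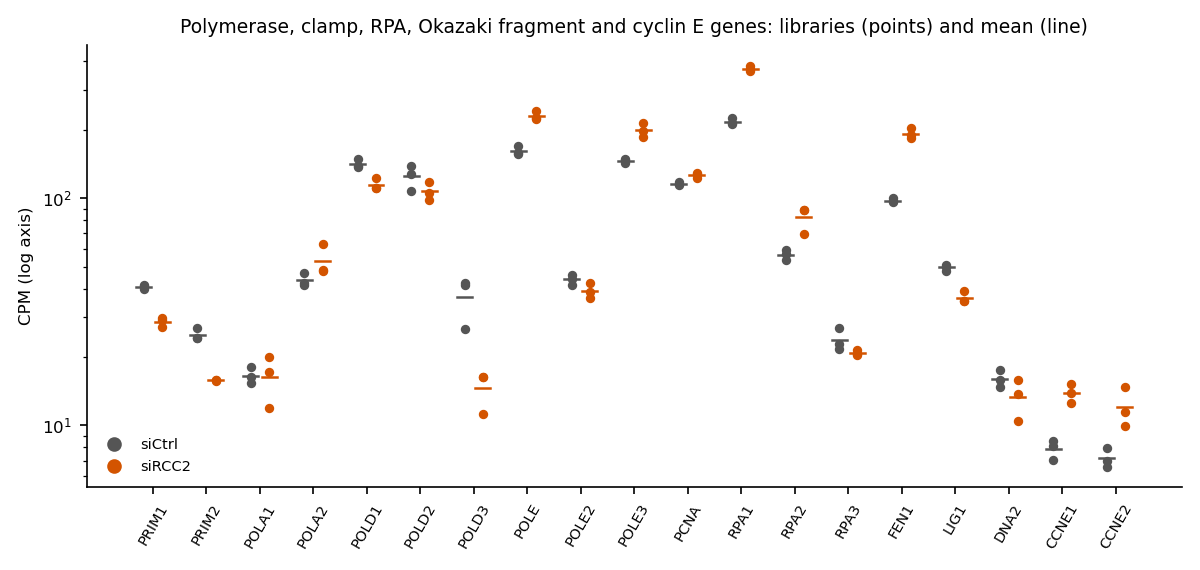
CPM on a log axis in each library (points) with the group mean (lines) for the polymerase, PCNA, RPA, Okazaki fragment and cyclin E genes, siCtrl in grey and siRCC2 in orange. FEN1, RPA1, POLE and POLE3 lie higher in all 3 siRCC2 libraries, and PRIM1, PRIM2, POLD3 and LIG1 lie lower.

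Both cyclin E genes, which activate CDK2 at the start of S phase, rose from low levels. CCNE1 measured 7.05, 8.51 and 8.14 CPM in siCtrl and 15.2, 12.6 and 13.9 CPM in siRCC2 (0.81 ± 0.13, adjusted p = 0.00283). CCNE2 measured 7, 6.57 and 7.93 CPM against 9.92, 11.4 and 14.7 CPM (0.74 ± 0.17, adjusted p = 0.0131). Neither gene's groups overlapped, and CCNE2 lost its call without siCtrl replicate 2 (adjusted p = 0.0516). The sources used here do not say whether strand was kept, and 37% of the exonic bases of CCNE2 overlap INTS8, which had 51.7 CPM and a log2 fold change of -0.15. The largest exonic overlap of FEN1 is with TMEM258, at 6.7%, and TMEM258 stood at -0.28 (adjusted p = 0.0811). The FEN1 locus also overlaps that of FADS2, annotated on the same strand and at 400 CPM. The effect of these overlaps on the FEN1 counts was not tested. GINS4 overlaps AC009630.2 over 21.2% of its exonic bases, but that gene was at 0.00915 CPM.

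The 4 chromatin and histone supply genes of the main list did not pass the test, unlike some chromatin genes of a further list given below. UHRF1, which guides DNA methylation to newly copied DNA, CHAF1A and CHAF1B, subunits of the chromatin assembly factor, and SLBP, which binds histone mRNA, had log2 fold changes from -0.09 to 0.13, with a smallest adjusted p of 0.19. Their levels ranged from 104 to 121 CPM for UHRF1, from 74.1 to 82.1 CPM for CHAF1A, from 48.2 to 61.9 CPM for CHAF1B and from 78.2 to 97.3 CPM for SLBP over all 6 libraries. The fork protection genes did not pass either. CLSPN, the adaptor that activates CHEK1, measured 22, 23.1 and 24.2 CPM in siCtrl and 8.59, 15.6 and 19.5 CPM in siRCC2 (-0.66 ± 0.27, adjusted p = 0.0843). Its siRCC2 libraries were all lower but far apart, and it passed without siRCC2 replicate 1 (-0.41, adjusted p = 0.0302) or without siRCC2 replicate 3 (-0.92, adjusted p = 0.0277). TIMELESS, which couples the helicase to the polymerases, differed by -0.28 ± 0.10 on the log2 scale (adjusted p = 0.0624) and passed without siRCC2 replicate 1 (adjusted p = 0.00847). Its partner TIPIN had -0.03 ± 0.11 (adjusted p = 0.846).

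**Figure D4:**
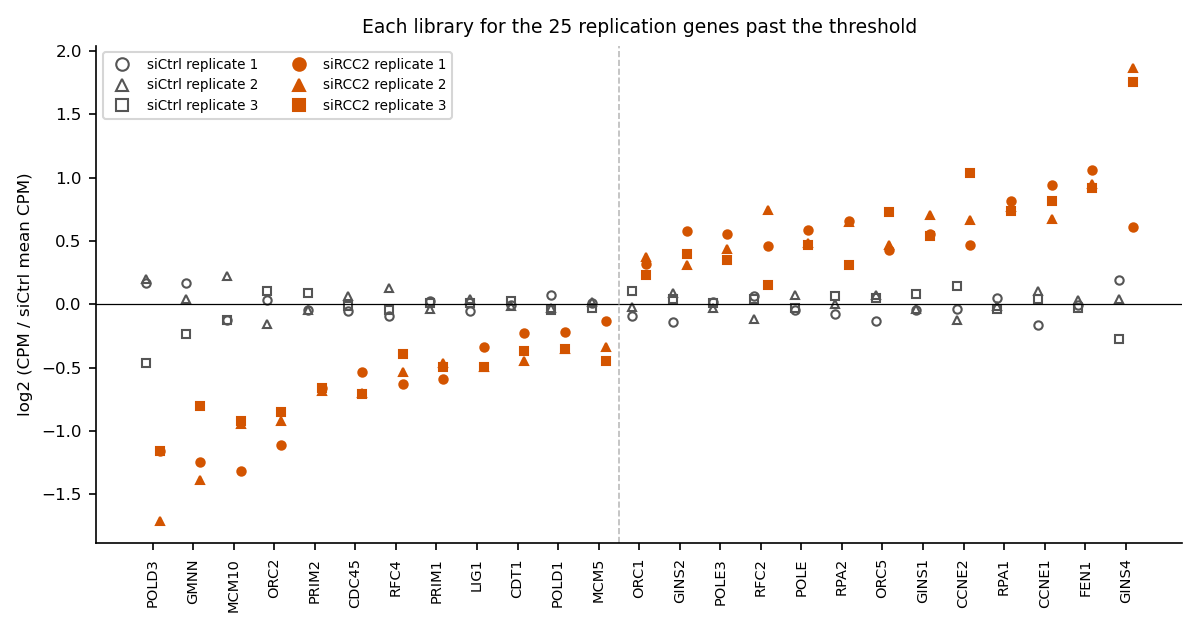
Log2 of each library's CPM over the siCtrl mean for the 25 genes past the threshold, open grey symbols for siCtrl and filled orange ones for siRCC2, ordered by mean change. In each gene the 3 siRCC2 symbols lie to one side of the 3 siCtrl symbols, with siRCC2 replicate 1 apart from the other two in GINS4.

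Among the 54 genes siRCC2 replicate 1 was the lowest library of its group in 18 and the highest in 28. For siRCC2 replicate 2 these numbers were 15 and 8, and for replicate 3 they were 21 and 18. Replicate 1 was lowest in GINS4, described above, and in RFC1, CLSPN, CDC7, DBF4, POLA1 and DNA2, whose standard errors were among the widest. Without it, the log2 fold change was -0.18 for RFC1, -0.41 for CLSPN, -0.27 for CDC7, 0.36 for DBF4, 0.14 for POLA1 and -0.13 for DNA2, of which CLSPN passed the test. The cause of its position was not tested. Longer transcripts were lower in siRCC2 over all tested genes, with a median log2 fold change of 0.13 under 1 kb and -0.20 over 8 kb. Most replication genes lie between, with 28 of the 54 at 2 to 4 kb, where the median over all genes was 0.01.

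Further genes of DNA replication, in 6 lists holding 79 genes, also went both ways. Beside the counts that follow, 20.7% of all tested genes were higher and 21.1% lower, with a median of -0.015. Of 30 other fork and origin factors, 7 were higher and 5 lower, with a median log2 fold change of -0.11. They included RNASEH2C, a subunit of the enzyme that removes RNA from DNA (1.03 ± 0.10, adjusted p = 0.000399), TONSL, which acts at stalled forks (0.62 ± 0.09, adjusted p = 0.00182), CUL4A, the ubiquitin ligase scaffold of the complex that degrades CDT1 (0.40 ± 0.06, adjusted p = 0.00204), and DONSON, which helps deliver GINS (-0.65 ± 0.14, adjusted p = 0.00839). In each of these 4 genes the groups did not overlap.

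Of 10 S phase kinase genes and regulators, 2 were higher and 2 lower (median 0.08). CDKN1B, which encodes the cyclin E-CDK2 inhibitor p27, rose (0.43 ± 0.09, adjusted p = 0.00842) together with WEE1, an inhibitory kinase (0.42 ± 0.12, adjusted p = 0.0271). CKS1B, a cofactor for p27 destruction, fell (-0.53 ± 0.13, adjusted p = 0.0166), as did PKMYT1, another inhibitory kinase (-0.63 ± 0.16, adjusted p = 0.0173). Of 8 replication checkpoint genes 1 passed, HUS1 of the 9-1-1 clamp, which fell from 28.5, 26.1 and 29.2 CPM to 12.5, 12.6 and 13.5 CPM (-1.12 ± 0.10, adjusted p = 0.000246); the list's median was 0.00. Its clamp partner RAD1 had 0.25 ± 0.09 (adjusted p = 0.051).

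Of 11 genes for deoxynucleotide supply, 3 were higher and 3 lower (median -0.00). TYMS, which makes thymidylate, rose (0.37 ± 0.06, adjusted p = 0.00261). DUT, which keeps uracil out of DNA, fell (-0.80 ± 0.08, adjusted p = 0.000318), and so did RRM2B, a subunit of ribonucleotide reductase (-0.90 ± 0.23, adjusted p = 0.0174). Of 7 histone chaperone and maintenance methylation genes, 1 was higher and 2 lower (median -0.01): the chaperone ASF1B (0.63 ± 0.08, adjusted p = 0.00119), the FACT subunit SSRP1 (-0.47 ± 0.06, adjusted p = 0.00134) and the maintenance methyltransferase DNMT1 (-0.51 ± 0.07, adjusted p = 0.0011).

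Of 13 E2F, DP and pocket protein genes, 3 were higher and 7 lower, with a median of -0.46. RB1, whose product normally restrains E2F but which is known to be defective in DU145, fell. It went from 30, 27.8 and 28.8 CPM to 6.35, 9.02 and 12.5 CPM (-1.63 ± 0.23, adjusted p = 0.00145). E2F2, an activator, fell (-1.27 ± 0.09, adjusted p = 0.000133), E2F6, a repressor, rose (0.99 ± 0.09, adjusted p = 0.000304), and TFDP2, a dimer partner, fell (-0.46 ± 0.07, adjusted p = 0.00222). All 4 had groups that did not overlap.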

How the data were processed

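RNA was sequenced from 6 libraries of DU145 cells, 3 per group, grouped by their titles. The authors deposited 1 table of whole-number counts per library for 50868 genes. Bowtie2, RSEM and DESeq2 are named, with the build GRCh38, per the submitters' processing notes, so the counts may be rounded RSEM estimates. RSEM shares reads between like sequences, so genes that share sequence with copies depend on that sharing: 8 of the 54 genes share over 10% of their 50-base stretches with other genes (POLA2, PRIM2, UHRF1, PRIM1, ORC6, DBF4, POLD1 and ORC4) and are uncertain for that reason. Tool versions, ribosomal RNA removal and strand are not stated there.

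The groups were compared by the quasi-likelihood F-test of edgeR 4.0.16 in R 4.3.3 (filterByExpr, TMM scaling), and p-values of the 16536 genes tested were adjusted by Benjamini-Hochberg, with 0.05 as the threshold. Standard errors are the absolute log2 fold change over √F, and intervals are 95%. CPM values are TMM-scaled. The biological coefficient of variation was 16.6%. Gene lengths, 3′ UTRs and overlaps came from GENCODE 29, which places 53 of the 54 genes at identical coordinates, and promoters from RefSeq GRCh38.p14. Replicates differed by more than sampling noise, and each library was counted once. That difference does not show that they were separate cultures, which the labels do not state.

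The genes, lists and tests were chosen with earlier results of these data known. Values in every library are given for each of the 54 genes past the threshold and for RCC2. Of each further list, at most the 4 genes with the smallest p are named, besides POLD4, POLE4 and the cell type markers. Some genes of these lists are not reported here. ATRIP has 2 rows, of which the more abundant was used. Alternatives were DESeq2 size factors, upper quartile and total count scaling, other filters (at least 1 read, at least 1 CPM), DESeq2 1.42.0, limma-voom (limma 3.58.1), a replicate block, length offsets, each library left out and a threshold of 0.01. Figures came from matplotlib 3.10.9 and tables from pandas 2.3.3 under Python 3.11.15.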

Additional observations from a re-analysis of the deposited data

How the results depend on the processing

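Of the 25 genes past the threshold, 18 kept their direction and call in all 16 refits (9 of 13 higher, 9 of 12 lower). ORC1, RFC2, GINS2, CCNE2, MCM5, POLD1 and CDT1 lost their call in some, and ORC3, ORC6, MCM7, CDC7, TIMELESS and CLSPN gained a call in some. Fits that left a library out held fewer libraries. The cause of these changes was not tested. At an adjusted p under 0.01, 4117 genes passed in all, 8 replication genes were higher and 9 lower, and 19 genes of the 6 further lists passed, against 6911, 13, 12 and 36 at 0.05. With libraries left out in turn, 5112 to 7565 genes passed, with 10 to 14 replication genes higher, 9 to 15 lower and 25 to 42 in the further lists, and the log2 fold change of RCC2 was -1.80 to -1.73. By scaling, filter or tool, 11 to 14 replication genes were higher and 11 to 14 lower.

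Deviations of same-numbered libraries from their group means correlated weakly (0.0591, -0.0417 and 0.0987), so no shared effect of replicate number was seen. Whether the libraries were paired by design is not in the labels. With the replicate number as a block, 6295 genes passed, 10 replication genes were higher and 13 lower, 33 in the further lists passed, and RCC2 had -1.76. 

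Changes of sign were limited to genes that did not pass: with total count scaling MCM4 (-0.04) and CHAF1B (-0.0049); with genes of at least 1 read MCM4 (-0.0047); with length offsets MCM2 (0.01), MCM6 (0.04) and POLA1 (0.08), and with the replicate block added 0.01, 0.03 and 0.06; and with 1 library left out MCM2 (-0.12 to 0.02), MCM3 (-0.00075 to 0.21), MCM4 (-0.02 to 0.11), MCM6 (-0.09 to 0.03), POLA1 (-0.19 to 0.14), CHAF1B (-0.05 to 0.15), TIPIN (-0.11 to 0.02) and DBF4 (-0.08 to 0.36). The median of the 54 genes ran from -0.065 with total count scaling to 0.085 with length offsets.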
